A study of Drosophila melanogaster with 4 samples.

Results

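The genes described here encode the AMP-activated protein kinase (AMPK) of Drosophila melanogaster and the kinase that switches it on. They are SNF4Agamma, AMPKalpha, alc and Lkb1, 4 of the 13945 protein-coding genes on the main chromosome arms of the annotation used. They were matched by symbol, and every peak summit in a gene body or within 5000 bp of it was collected, which gave 26 of the 7909 summits on the authors' list filtered by irreproducible discovery rate (IDR). SNF4Agamma was chosen by the signal of its strongest peak, 1 of the strongest in the data, so the values of that peak are a description and carry no test. IDR filtering is meant to keep peaks whose ranking recurs between replicates. In these data the filtered list is made up of the 7909 pooled-replicate peaks with the greatest signal. A listed summit therefore need not recur in every replicate, and its recurrence is given separately below. A summit is the base at which a called peak is highest.

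The data are a ChIP-seq series on whole embryos, aged 6 to 24 h, of a transgenic line with stable expression of exex carrying GFP at its C-terminus. exex, the counterpart of vertebrate HB9, is a homeodomain protein known for its part in motor neuron identity. Chromatin was sonicated to fragments of 200 to 800 bp and the fusion protein was pulled down through GFP. All 4 libraries form 1 group of biological replicates, no untagged or untreated group is among them, and read depth is unknown because peak lists carry no read counts. Whole organisms were pooled, so the cell types that contribute each peak cannot be told apart, and the sources used here do not give the place or copy number of the transgene.

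AMPK is an energy sensor made of 3 subunits. AMPKalpha is the catalytic subunit, alc (alicorn) is the beta subunit that holds the complex together, and SNF4Agamma is the gamma subunit, whose nucleotide-binding domains sense AMP against ATP. Lkb1 phosphorylates the catalytic subunit and thereby activates it. When energy is low, the active kinase restrains lipid and protein synthesis and promotes fat use and autophagy. In adult flies, loechrig, a mutation of SNF4Agamma, is known for progressive degeneration of the brain.

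The windows below are centred on the summits that the results on SNF4Agamma turn on, and each runs 100 bp to either side. They are the 3 strongest summits of the gene, a weaker one with TAATTA but not CTTATC, and a weaker one with neither. Capitals mark CTTATC, the reverse complement of the GATAAG that GATA factors are known to prefer, and TAATTA, which many homeodomain proteins prefer. Both were searched on both strands, and their letters cannot overlap each other. All runs are from the plus strand of the RefSeq genome, Release 6 (dm6), with positions counted from 1.
SNF4Agamma, upstream of promoter 4, chr3R:21180058-21180258: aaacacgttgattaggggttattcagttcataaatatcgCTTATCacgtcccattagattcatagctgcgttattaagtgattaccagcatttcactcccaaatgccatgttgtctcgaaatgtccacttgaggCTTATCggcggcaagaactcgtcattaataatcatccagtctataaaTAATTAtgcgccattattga
SNF4Agamma, upstream of promoter 6, chr3R:21198148-21198348: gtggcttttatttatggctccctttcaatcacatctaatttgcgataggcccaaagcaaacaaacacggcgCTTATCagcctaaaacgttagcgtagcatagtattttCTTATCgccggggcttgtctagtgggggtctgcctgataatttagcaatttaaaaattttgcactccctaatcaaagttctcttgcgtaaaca
SNF4Agamma intron, upstream of CG5810, chr3R:21163399-21163599: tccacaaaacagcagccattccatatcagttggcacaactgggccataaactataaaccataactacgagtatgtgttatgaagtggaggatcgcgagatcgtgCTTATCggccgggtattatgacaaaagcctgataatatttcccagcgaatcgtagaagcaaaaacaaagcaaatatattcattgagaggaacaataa
SNF4Agamma, downstream of promoter 3, chr3R:21157178-21157378: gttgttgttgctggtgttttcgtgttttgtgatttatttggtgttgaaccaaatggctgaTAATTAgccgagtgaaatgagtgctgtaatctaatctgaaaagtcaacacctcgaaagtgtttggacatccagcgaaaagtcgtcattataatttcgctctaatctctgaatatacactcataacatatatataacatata
SNF4Agamma, upstream of promoter 9, chr3R:21206869-21207069: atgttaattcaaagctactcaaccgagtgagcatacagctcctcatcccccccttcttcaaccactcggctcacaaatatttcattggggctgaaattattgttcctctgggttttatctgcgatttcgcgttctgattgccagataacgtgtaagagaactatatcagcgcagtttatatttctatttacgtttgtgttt

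The strongest window holds CTTATC at 2 places, the nearer of them 34 bp from the summit, and TAATTA once, 81 bp from it. The window upstream of promoter 6 also holds CTTATC at 2 places, with the nearer one 8 bp from the summit. In the window upstream of CG5810, the only CTTATC lies 4 bp from the summit. TAATTA is 35 bp from the summit downstream of promoter 3, and the window upstream of promoter 9 holds neither sequence. These matches describe the letters and are not evidence of which factor was bound.

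Of the 4 genes, SNF4Agamma held 17 IDR summits, alc 8, AMPKalpha 1 and Lkb1 none. A gene with at least 1 IDR summit in the same kind of window was common, at 55.4% of all protein-coding genes, so 3 of 4 members with a summit is a share to be read against that background. The number of summits per window differed widely between the members, and only SNF4Agamma and alc stood high among all genes. Among all protein-coding genes the median was 1 summit and the highest count was 29, and 11 genes, SNF4Agamma among them, held 17 or more, which is 0.0789%. alc reached its 8 summits, only 2 of them in the gene body, in a short window, and 273 genes (1.96%) held as many or more. AMPKalpha had the median number and Lkb1 had fewer.

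A longer window has more room for summits, so genes with a window within 20% of each member's length were set beside it. SNF4Agamma has a window of 83.5 kb, and the 147 other genes of like length held a median of 2 IDR summits (quartiles 0 and 6), with 3 of them at 17 or more. alc has a window of 12.6 kb, and 43 of the 10491 other genes of like length held 8 or more (0.41%). Of the 9768 other genes with a window like that of AMPKalpha, 54.8% had a summit, and of the 10653 with one like that of Lkb1, 52.2% had one. Per 10 kb of window, alc carried 6.37 IDR summits, SNF4Agamma 2.04 and AMPKalpha 0.75. The densest cover was thus in the alc window and not in that of the gene with the strongest peak. Only 2 of the alc summits lie in its gene body, so this density describes the window and its neighbours rather than alc itself.

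**Figure D1:**
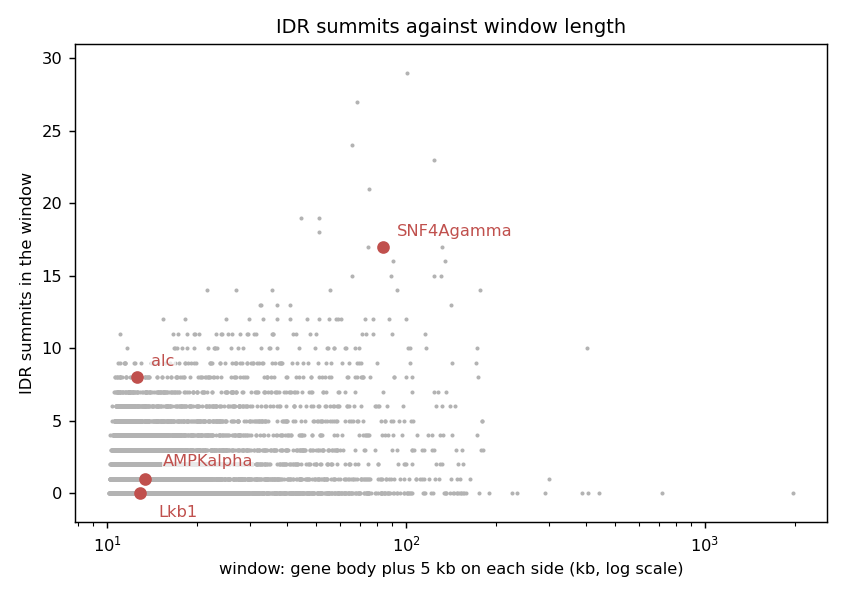
IDR summits in each gene's window (vertical axis) against the length of the window, the gene body plus 5 kb on each side (horizontal axis, kb, log scale). Each grey point is 1 of 13945 protein-coding genes and the red points are the 4 members: SNF4Agamma stands at 17 summits and alc at 8, while AMPKalpha at 1 and Lkb1 at 0 lie in the dense lower band.

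Replicates were compared through ranks, because the authors' signal value of a peak is comparable only within its own list. Rank 1 is the peak with the highest signal, and each replicate list holds 30000 peaks. The 7909 strongest peaks of each replicate, a number equal to the length of the IDR list, served as its strongest peaks. In replicates 1 to 4 these placed 18, 21, 18 and 20 summits in the SNF4Agamma window and 7, 9, 10 and 9 in the alc window. They placed 0, 0, 1 and 1 in the AMPKalpha window, and 0, 1, 0 and 0 in the Lkb1 window. The counts for SNF4Agamma (19.25 ± 1.5, SD, n = 4) and alc (8.75 ± 1.26) did not overlap each other or those of the other 2 genes in any replicate, whereas AMPKalpha and Lkb1 overlapped. These are counts per window, and the SNF4Agamma window is 83.5 kb long, against 12.6 kb for alc, 13.4 kb for AMPKalpha and 12.9 kb for Lkb1. On the IDR list, 2.04% of genes of like window reached the SNF4Agamma count and 0.41% the alc count. SNF4Agamma was chosen by its strongest peak, and most alc summits lie outside alc, so the order is a description of windows.

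By the strongest peak in its window, SNF4Agamma stood at rank 7, 7, 6 and 39 in replicates 1 to 4, and alc at rank 296, 420, 395 and 311. AMPKalpha stood at 8098, 28661, 7315 and 6420, and Lkb1 at 11536, 5662, 16480 and 7971. SNF4Agamma was ahead of alc, and alc ahead of the other 2, in 4 of 4 replicates. The first place of SNF4Agamma is a description, because the gene was chosen by that peak. AMPKalpha was ahead of Lkb1 in 3 of 4, and replicate 2 had the opposite order. These are orders of windows and not of genes. The alc peaks all lie at a start of Hydr1. The AMPKalpha peak of replicate 2 lies in CG32813, and the Lkb1 peaks of replicates 1, 3 and 4 lie near the start of flfl.

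Replicate 4 differs from the others across the whole data, since 23.2% of its listed peaks had a q-value under 0.01, against 43.1%, 39.6% and 46.2% in replicates 1 to 3. Its part in the member results was not tested, and the values without it are given where they differ. Of the 26 member summits, 19 were overlapped by the strongest peaks of all 4 replicates, against 65.3% of all IDR summits, and 25 were overlapped by some listed peak in all 4, against 93.1%. The exception was the AMPKalpha summit, which replicate 2 does not list.

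**Figure D2:**
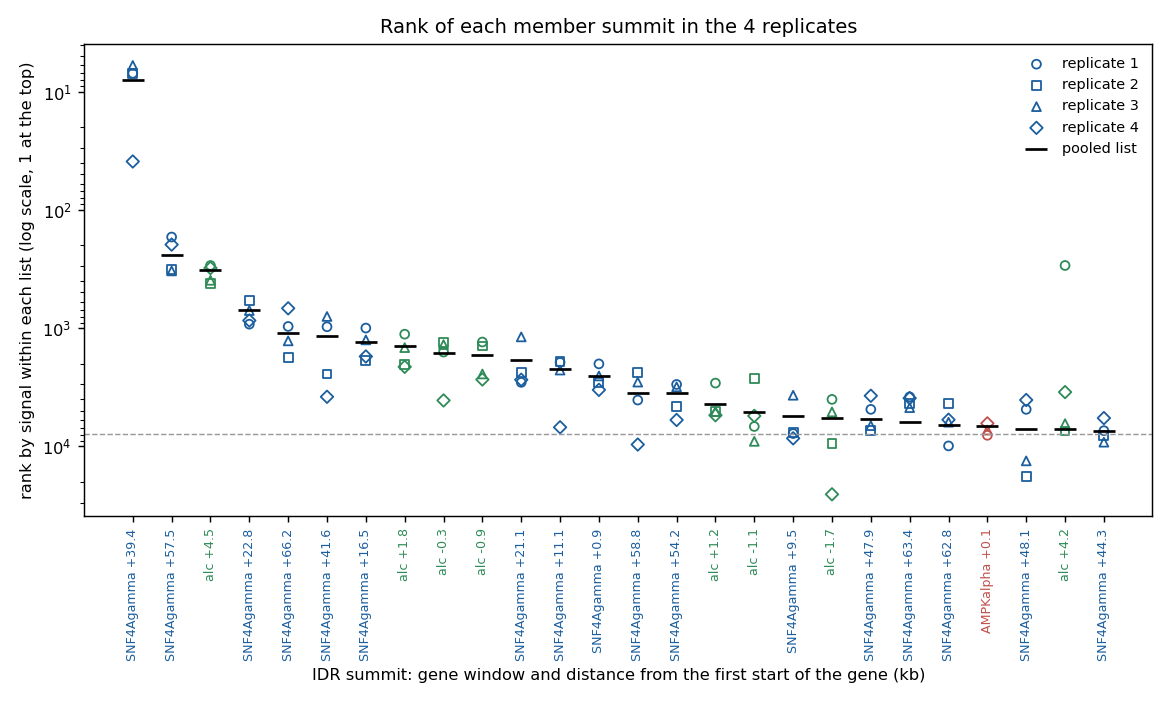
Rank by signal (vertical axis, log scale, rank 1 at the top) of each of the 26 member IDR summits in the 4 replicates (open symbols) and in the pooled list (black bars), ordered by pooled rank and coloured by gene. The horizontal axis names the gene window and the distance from the first start of the gene in kb, and the dashed line is rank 7909; the SNF4Agamma summit at +39.4 kb is at rank 6 or 7 in 3 replicates and at 39 in replicate 4.

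SNF4Agamma (FBgn0264357) spans chr3R:21140739-21214269 on the plus strand. Its 16 annotated transcripts start at 11 sites, which fall into 9 promoters when starts at most 300 bp apart are joined. The transcripts differ at their 5′ ends, and their coding parts run from 538 to 1400 codons. Of the 9 promoters, 7 had an IDR summit within 1000 bp. Over all protein-coding genes 28.2% of promoters had one, and over genes with 5 or more promoters 38.7%. The 7 include promoter 4, whose peak led to the choice of the gene, and promoter 7, whose only summit is nearer to promoter 6. The count is therefore a description.

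Promoter 4, at 21180788, carried the strongest peak of the gene. It starts 3 transcripts whose coding part is 614 codons long. The summit, at 21180158, lies 630 bp upstream of it in an intron of the longer transcripts, with a signal of 6364 and rank 8 of 7909. The replicate ranks were 7, 7, 6 and 39, and the replicate summits fell within 12 bp of the pooled one. Replicate 4 placed it lower than the other 3, and the mean rank of 14.8 ± 16.2 (SD, n = 4) came to 6.67 without it.

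Promoter 6, at 21199181, starts 3 transcripts of 906 codons and has the second strongest peak. Its summit at 21198248 is 933 bp upstream, with a signal of 2179 and rank 242. The replicates ranked it 170, 319, 329 and 197, so that replicate 4 was within the range of the others here. The signal at promoter 4 was 2.92 times that at promoter 6 in the pooled list. A weaker summit at 21199530 (rank 3566) lies in an exon, 349 bp downstream of the start at promoter 6, and 885 bp upstream of promoter 7 at 21200415. The replicates ranked that one 4075, 2370, 2872 and 9695, and replicate 4 did not have it among its strongest peaks.

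Promoters 1, 3, 5 and 8 had weaker peaks. At promoter 1 (21140739, 947 codons) the summit lies 922 bp downstream at 21141661, with rank 2530 and replicate ranks of 2014, 2910, 2547 and 3341. At promoter 3 (21156362), which starts the transcripts with the longest coding part of 1400 codons, the summit lies 916 bp downstream at 21157278, with rank 1317 and replicate ranks of 1002, 1874, 1262 and 1742. In both cases all 4 replicates stayed close to the pooled rank.

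Promoter 5, at 21188866, had 2 summits on its upstream side, at 21188610 (256 bp away, rank 5920) and at 21188816 (50 bp away, rank 7133). The first was ranked 4885, 7366, 6707 and 3749. The second shares the replicate 1 peak of rank 4885 with the first, and the other replicates ranked it 18208, 13329 and 4070. It was the only SNF4Agamma IDR summit within 200 bp of a start of the gene, and 3 of the 4 replicates had a peak among their strongest that overlapped it.

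At promoter 8 (21204928, 814 codons) the summit lies 837 bp upstream at 21204091, with rank 6284 and replicate ranks of 3831, 4360, 4723 and 3926. Promoters 2 and 9, at 21153296 and 21208478, had no IDR summit within 1000 bp. Promoter 2 had no pooled or replicate summit there either. At promoter 9, which starts the shortest coding part of 538 codons, the pooled list held a summit of rank 21780 at 398 bp, and replicates 2, 3 and 4 listed summits of rank 21918, 18853 and 19255.

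In all, 8 of the 17 summits lay within 1000 bp of a start of SNF4Agamma, 5 of them upstream and 3 downstream. With a limit of 500 bp in place of 1000 bp, 2 of the 9 promoters kept a summit, so most of these peaks stand off from the start itself. The 17 summits span 65.3 kb with a median gap of 3.11 kb, and 16 of them lie in introns.

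**Figure D3:**
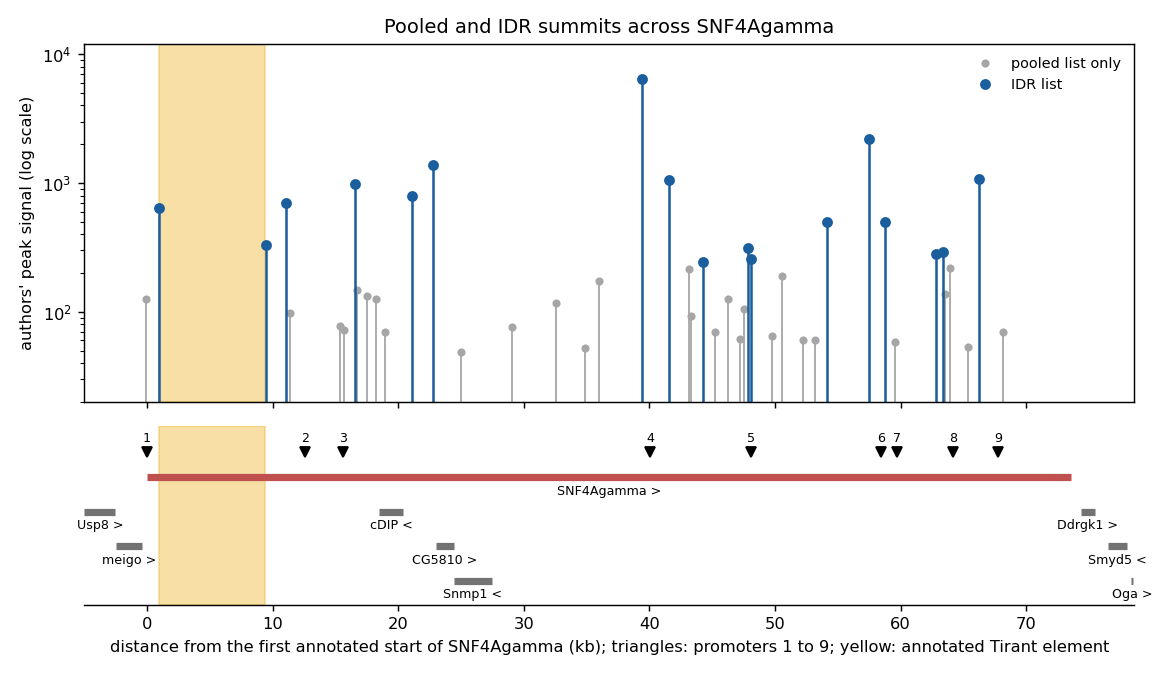
Authors' peak signal (vertical axis, log scale) of the pooled and IDR summits across SNF4Agamma, by distance from its first annotated start (horizontal axis, kb). Below, bars are gene bodies (> same strand as SNF4Agamma, < opposite), triangles are promoters 1 to 9 and yellow marks the annotated Tirant element; the summit upstream of promoter 4 has a signal of 6364, and no summit falls in the element.

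Other IDR summits in the gene lie away from its own promoters. The third strongest, at 21163499 (signal 1371, rank 700), is 279 bp upstream of CG5810, a gene nested in an intron of SNF4Agamma on the same strand. The replicates ranked it 929, 583, 712 and 865. Another, at 21161832 (rank 1872), is 740 bp upstream of the nested cDIP, which encodes a leucine-rich repeat protein that binds Dpr cell surface proteins, and the replicates ranked it 2886, 2380, 1190 and 2743. These 2 summits are inside SNF4Agamma but nearer to the starts of other genes.

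The remaining intronic summits are more than 1000 bp from any start. The strongest of them, at 21206969 (signal 1074, rank 1110), lies 1509 bp upstream of promoter 9, and the replicates ranked it 971, 1764, 1286 and 682. The next, at 21182318 (rank 1164), lies 1477 bp downstream of the last start of promoter 4, and its ranks of 977, 2455, 799 and 3824 spread more widely. The summit at 21151815 (rank 2245) was ranked 1954, 1917, 2272 and 6925, with replicate 4 again lowest. Those at 21194913, 21203524 and 21184993 had ranks of 3569, 6608 and 7435.

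An annotated copy of Tirant, an LTR retrotransposon, occupies chr3R:21141729-21150154 between promoters 1 and 2, 8426 bp in all. One IDR summit lies 68 bp before it (21141661, rank 2530) and another 68 bp after it (21150222, rank 5565). No summit of the IDR list, the pooled list or any replicate list fell inside the element. This was looked at after the summits had been seen. The replicates ranked the right-hand summit 7827, 7691, 3711 and 8591, so it was a weaker peak than the left-hand one in all 4.

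Of 695 annotated elements of at least 5000 bp on the main arms, none had an IDR summit inside, 6 had a summit within 200 bp outside 1 end, and this Tirant copy alone (0.144%) had one outside both ends. The sources used here do not say whether these embryos carry the insertion, nor how reads from repeated sequence were treated. The flanks of 150 bp on each side are printed because both summits lie in them, with CTTATC in capitals.
SNF4Agamma, left of the element, chr3R:21141579-21141728: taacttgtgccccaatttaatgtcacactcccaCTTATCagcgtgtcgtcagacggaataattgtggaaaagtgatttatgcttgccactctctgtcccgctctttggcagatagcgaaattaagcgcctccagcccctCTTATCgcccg
SNF4Agamma, right of the element, chr3R:21150155-21150304: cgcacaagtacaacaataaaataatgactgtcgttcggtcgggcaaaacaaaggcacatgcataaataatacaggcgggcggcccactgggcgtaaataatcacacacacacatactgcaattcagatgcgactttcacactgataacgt

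The left flank holds CTTATC at 2 places and the right flank at none. The window around the left summit thus carries the letters and the window around the right summit does not.

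CTTATC was found within 100 bp of 7 of the 17 SNF4Agamma summits, which is 41.2%, and TAATTA of 4 (23.5%). The background over all 7909 IDR summits was 35.4% and 19.7%, so both shares were near it. The 3 strongest summits of the gene all had CTTATC, as did 4 of the other 14. CTTATC was also more common at strong peaks in general, at 42.1% of the stronger 3954 IDR summits. One summit, the strongest, had both, which 6.37% of all IDR summits had, and 7 had neither, against 51.3%.

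Over all 26 member summits, 10 (38.5%) had CTTATC, 5 (19.2%) TAATTA, 2 both and 13 neither. The median GC content of their windows was 40.0%, against 38.8% for all IDR summits. In the 250 bp upstream of the promoters, TAATTA occurred at promoter 4 of SNF4Agamma and at no other promoter of the 4 genes. There CTTATC occurred upstream of AMPKalpha and of the first start of alc. Over the 17771 promoters of all protein-coding genes, 16.7% had CTTATC and 18.0% TAATTA in such a stretch. The shares of the member summits were thus near the background.

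By rank in the 4 replicates, the genes whose strongest promoter summit was most like that of SNF4Agamma were CG8785, CG3649 and CG6231, out of 3929 other genes with a summit within 1000 bp of their own start. Likeness was the mean absolute difference in log2 rank over the 4 replicates. CG8785 differed by 0.45, with ranks of 10, 5, 5 and 27. CG3649 differed by 0.52, with ranks of 6, 10, 13 and 33, and CG6231 by 0.73, with ranks of 5, 8, 8 and 11. As for SNF4Agamma, replicate 4 gave the lowest place of the 4 to each of these genes. Choosing genes by likeness over these same ranks favours such a match, so it is a description only.

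AMPKalpha (FBgn0023169), the catalytic subunit, lies at chrX:1375536-1378896 on the plus strand. It has 1 annotated start, and its 3 transcripts share a coding part of 582 codons. Its single IDR summit, at 1375663, is 127 bp downstream of the start in the 5′ untranslated exon, with a signal of 271 and rank 6811 of 7909. The replicates ranked the overlapping peak 8098, not listed, 7315 and 6420. It is a peak near the end of the IDR list, and where 3 replicates list it the mean rank was 7278 ± 840 (SD, n = 3, replicate 2 left out because it lists no peak there).

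No 3 replicates all had the AMPKalpha peak among their strongest, so the count fell from 1 to 0 whichever replicate was left out. The window of the summit has a GC content of 50.2% and holds neither CTTATC nor TAATTA. The stretch just upstream of the start, part of which the pooled peak covers, does hold CTTATC, and it is printed here for comparison with the SNF4Agamma windows, in the direction of transcription.
AMPKalpha, upstream of its start, chrX:1375286-1375535: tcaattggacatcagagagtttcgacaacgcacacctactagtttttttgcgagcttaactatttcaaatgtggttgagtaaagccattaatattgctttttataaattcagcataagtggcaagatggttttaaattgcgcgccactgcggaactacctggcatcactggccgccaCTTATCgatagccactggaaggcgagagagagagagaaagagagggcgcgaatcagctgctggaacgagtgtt

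The AMPKalpha window held 4 further pooled summits, ranked from 13266 to 23866, near the starts of the neighbours ssx, CG3719 and CG32813. The nearest IDR summit outside the window lies 5159 bp from the gene body, at rank 6058. Neither the IDR list nor the pooled list had another summit inside AMPKalpha, so its peaks come down to a weak one at the promoter.

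alc (FBgn0260972), the beta subunit, lies at chr2R:9135375-9137933 on the minus strand, with starts at 9137933 (alc-RA, 341 codons) and 9137370 (alc-RB, 220 codons). Only 2 of the 8 IDR summits in its window are inside alc, 1 lies between alc and its upstream neighbours, 2 lie in Hydr1 and 3 in CG44286 and CG8788, which share 1 annotated span. Sorted by the nearest start, 2 of the 8 were nearest to alc. No sequence is printed for alc.

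Inside alc, the stronger summit, at 9136104, lies 1266 bp downstream of the second start in an intron, with a signal of 932 and rank 1412. The replicates ranked it 1129, 2049, 1466 and 2133. Its window holds both CTTATC, 88 bp from the summit, and TAATTA, 77 bp from it. The weaker one, at 9136714 (rank 4378), is 656 bp downstream of that start and was ranked 2927, 5057, 5093 and 5477. All 4 replicates had both among their strongest peaks.

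The summit at 9138221 (signal 862, rank 1617) lies 288 bp upstream of the first alc start and 265 bp from the start of CG44286 and CG8788, which are read in the opposite direction, so it cannot be given to either side. The replicates ranked it 1600, 1331, 1382 and 4105, with replicate 4 lower than the rest. Its window has CTTATC 46 bp from the summit and the lowest GC content of all member summits, 27.9%.

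The strongest summit of the window, at 9133477 (signal 1929, rank 326), is 32 bp from a start of Hydr1, the gene of an alpha/beta hydrolase, and 3893 bp from the nearest alc start. The replicates ranked it 296, 420, 395 and 311, which gives a mean of 356 ± 61.2 (SD, n = 4), and replicate 4 was not set apart. The second Hydr1 summit, at 9133687 (rank 7166), lies in coding sequence and shares the replicate 1 peak of rank 296. The other replicates ranked it 7451, 6452 and 3489.

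The 3 summits in CG44286 and CG8788 were weaker. They lie at 9138874 (rank 1708), 9139074 (rank 5108) and 9139626 (rank 5766). The first was ranked 1315, 1420, 2451 and 2730, and the second 6821, 2698, 9110 and 5546. The third was ranked 4023, 9557, 5135 and 25567, and so was far down the list in replicate 4. With the window drawn at the gene body alone alc kept 2 summits, and with 1000 bp added on each side 4.

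Lkb1 (FBgn0038167), the upstream kinase, lies at chr3R:13676549-13679430 on the plus strand. Its 9 transcripts start at 13676549 or 13676689 and share a coding part of 567 codons. No IDR summit lay in its window, and the nearest one was 7126 bp from the gene body, at rank 1605. The pooled list had 2 summits in the window, at 13683082 (rank 28051) and 13683848 (rank 11371). Both lie in omd, 6393 and 7159 bp from the nearer Lkb1 start, and the second is 73 bp from the start of flfl, a regulatory subunit of a protein phosphatase.

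At the Lkb1 promoter itself the replicates were divided. Replicate 2 had a summit at 13676713, 24 bp from the second start, with rank 5662 and a q-value under 0.01, and a weaker one at 13676915 (rank 14798). Replicate 4 had summits at 13676507 (rank 9573) and 13676707 (rank 10082), neither with a q-value under 0.01. Replicates 1 and 3 and the pooled list had no summit within 1000 bp of a start. CG9588 starts at 13676681 on the opposite strand, between the 2 Lkb1 starts, so a peak there could not be given to Lkb1 alone. A peak at the Lkb1 promoter was thus listed in 2 of 4 replicates.

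**Figure D4:**
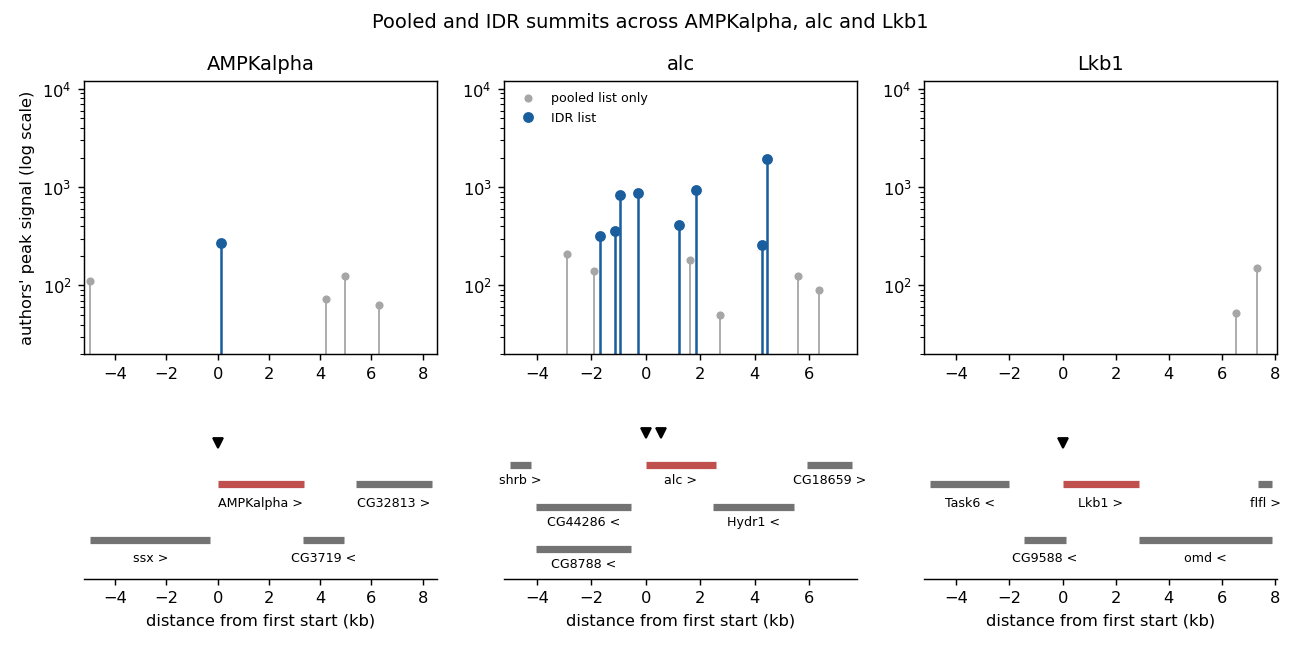
Authors' peak signal (vertical axes, log scale) of pooled and IDR summits around AMPKalpha, alc and Lkb1, by distance from the first start in the direction of transcription (horizontal axes, kb). Bars are gene bodies (> same strand as the member, < opposite) and triangles are member promoters; AMPKalpha has 1 IDR summit, alc 8 of which 2 are in its body, and Lkb1 none.

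Not every summit passed the IDR filter. Of 45 pooled summits in the SNF4Agamma window 28 were left out, of 5 at AMPKalpha 4, of 14 at alc 6, and of 2 at Lkb1 both. The last SNF4Agamma summits inside the list were those of rank 7133 and 7435, with signals of 258 and 246, and that of alc had rank 7166 and signal 257. Just outside were SNF4Agamma summits of rank 8283 and 8428, with signals of 218 and 214, and an alc summit of rank 8614 with signal 209. The list ends at a signal of 230, so these neighbours differ by little, and the number of summits per gene depends on where the list ends.

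Replicate 4 had 2 strong peaks at the edges of the SNF4Agamma window that overlap no pooled peak. They lie at 21138596 (rank 2137), 96 bp from the start of meigo, and at 21214895 (rank 2592), 184 bp from the start of Ddrgk1. Replicate 3 listed a peak at the first place at rank 13757, and no other replicate listed the second. Both are at promoters of neighbours and not at a start of SNF4Agamma.

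A list of 29 genes around AMPK and Lkb1 was counted in the same way. Of these, 20 (69.0%) had an IDR summit in their window, against 55.4% of all protein-coding genes, and 16 (55.2%) had one within 1000 bp of their own start, against 28.2%. Their windows are longer, with a median of 19.9 kb against 12.2 kb, and the part of length in these shares was not tested. The list held 121 summits, with a median of 3 per gene. Its strongest summits lay inside the gene's own body in 11 genes and outside it in 9. KP78a and KP78b on the list share an annotated span, so the same window, without a summit, was counted for each.

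Among the upstream partners 2 of 4 genes had a summit. Mo25, a scaffold of the Lkb1 complex, had 3, the strongest at rank 3735 (4155, 3345, 5239 and 3169 in replicates 1 to 4). It lies outside Mo25, nearest to the start of CG4101. Tak1, a kinase that can act on AMPK in mammals, had 3, the strongest at rank 4861 (6210, 5117, 4260 and 10975). Both ranks lie towards the middle of the 7909 on the IDR list.

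Of the kinases related to AMPK on which Lkb1 is known to act, 3 of 6 (50%) had a summit, against 55.4% of all protein-coding genes. KP78a and KP78b, which had none, share an annotated span and so have the same window. Nuak1, annotated as Nuak, had 7, the strongest at rank 1595 (3695, 1473, 1506 and 1433). par-1, a polarity kinase, had 8, the strongest at rank 1596, 974 bp from its own start (1492, 2145, 2082 and 1229). Both peaks lie inside the gene.

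All 8 lipid and transcription targets had a summit, and 6 had one within 1000 bp of an own start. ACC, the enzyme that makes malonyl-CoA for fatty acid synthesis and a classic AMPK substrate, had its strongest summit at rank 219, 421 bp from its own start, with ranks of 200, 231, 220 and 485. Lpin, a phosphatidate phosphatase of fat storage, had its strongest at rank 576, 271 bp from its own start, with ranks of 809, 406, 494 and 822. The ACC summit stood behind 1 of the 26 member summits, and the Lpin summit behind 3.

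Of the growth and autophagy targets 6 of 8 had a summit. Tsc1, an inhibitor of growth through the TOR kinase, had the strongest on the list, at rank 147 (134, 107, 143 and 610). That summit is inside Sec10 and 384 bp from the start of Npc2f, 7204 bp from the Tsc1 start. Atg1, the kinase that starts autophagy, had its strongest at rank 393 (356, 499, 417 and 637), 235 bp from the start of CG42709, which is nested in Atg1. Position thus does not tie either peak to the named gene.

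Of the energy hormones and receptors 1 of 3 had a summit. InR, the insulin receptor, had 12, the strongest at rank 1571 (1623, 941, 1758 and 4833) inside the gene. Akh, the fly counterpart of glucagon, and its receptor AkhR had none.

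**Figure D5:**
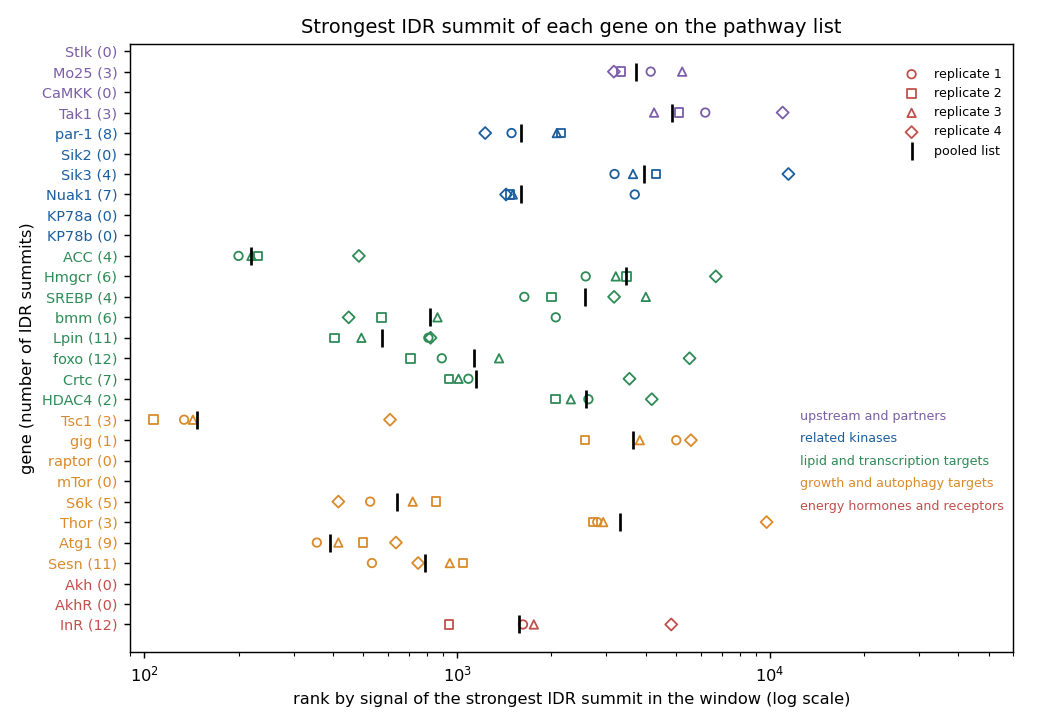
Rank by signal of the strongest IDR summit in the window of each of 29 pathway genes (horizontal axis, log scale, stronger to the left) in the 4 replicates (open symbols) and the pooled list (bars), with the number of IDR summits beside each gene name on the vertical axis. Colours mark the role groups, and genes with 0 have no point; the 8 lipid and transcription targets all have one, and the strongest on the list is that of Tsc1 at rank 147.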

How the data were processed

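Anti-GFP ChIP-seq peak lists of 4 replicates, of the pooled replicates and of the IDR filter were used, all on dm6 per the labels. The embryo age is that of the source name, since a second age label holds a number that cannot be read as an age. The sources used here do not give the aligner, the peak caller or the IDR threshold. The signal deposited by the authors was treated as a score and used to rank peaks within a list. The q-value deposited by the authors is on a −log10 scale and was used to count peaks with q under 0.01. The IDR list was identical to the 7909 highest-signal pooled peaks.

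Genes, starts and elements came from Ensembl release 115 (BDGP 6.54), and sequences from the RefSeq Release 6 genome, whose chromosome ends held all peaks. A replicate peak was matched to a summit when it overlapped the IDR peak by at least 1 bp, taking the overlapping peak whose summit was nearest, so neighbouring summits can share a replicate peak. A summit counted as overlapped by the strongest peaks of a replicate when any of those overlapped its IDR peak, also where the nearest peak was a weaker one. Values are given as a mean and SD over replicates, with no test, because there is 1 group. Nothing beyond the label says how the replicates were raised.

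The members, lists and named genes were chosen with earlier results of these data known. Named genes were the 4 members, 2 pathway genes per role group with the strongest summits, genes whose body or start (within 1000 bp) holds a member summit, and the 3 genes most like SNF4Agamma. Other neighbours, KP78a, KP78b and the element were named after their values were seen. The matching of summits to genes was checked on simulated data. Python 3.11.15, numpy 2.4.6, pandas 2.3.3 and matplotlib 3.10.9 were used.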

Additional observations from a re-analysis of the deposited data

Results flagged for a closer look

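Of 8 measures of the members and the pathway list compared between the 4 replicates, 3 had 1 replicate apart from the others. The Lkb1 window held 1 of the strongest summits in replicate 2 and none in the other 3. Of the pathway genes, 23 had a strongest-list summit in replicate 4, against 21 in each of the others. Both of these are small whole counts, where any single differing count stands apart, so the chance of about 1 in 20, which holds for continuous values, does not apply to them. The strongest SNF4Agamma peak had rank 39 in replicate 4, against 6 or 7 in the others, which is a description, since the gene was chosen by that peak.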

How the results depend on the processing

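Of 99 alternative values over 14 results, 83 kept within the spread or within 1.5 times the main count and 16 moved. Taking the stronger 3954 IDR peaks, SNF4Agamma kept 11 summits, alc 4 and AMPKalpha 0. With 10000 bp on each side AMPKalpha had 3 and Lkb1 2, while alc had 4 with 1000 bp and 2 with none. Within 500 bp, 2 SNF4Agamma promoters kept a summit. The mean rank at AMPKalpha was 12623.5 when the strongest replicate peak anywhere in the window was taken. With 50% reciprocal overlap, 11 member summits recurred in all 4 replicates. TAATTA was found at 2 summits within 50 bp and 8 within 200 bp, where all IDR summits had 12.3% and 31.02%. The cause was not tested beyond the smaller or larger windows themselves.

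Leaving out each replicate in turn gave 12 to 14 summits at SNF4Agamma, 7 to 8 at alc, 0 to 0 at AMPKalpha and 0 to 0 at Lkb1. Such lists are shorter, because each kept peak must recur in the other 3 replicates, and they held 5339 to 5982 peaks. Mean ranks ran from 6.67 to 17.7 for SNF4Agamma, from 334 to 375 for alc, from 6867.5 to 7706.5 for AMPKalpha and from 11996 to 14874 for the strongest pooled summit in the Lkb1 window. Leaving out a replicate left 2 members and 19 to 20 pathway genes with a summit. No paired analysis was possible because there is 1 group. Ranks carry no depth, and a peak that is not listed may lie below the end of a list rather than be absent.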
